A study of Mus musculus with 56 samples.

Results

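Potassium channel subunit genes were followed in a calf muscle, the gastrocnemius, of female C57BL/6 mice that had breathed cigarette smoke. Every gene whose symbol starts with Kcn and follows the pattern of 1 or more letters and a number was taken from the probe annotation, which gave 80 genes of the 18193 that had a probe set of their own. These 80 genes had 158 probe sets, a probe set being the group of short array sequences that reads 1 transcript. The probe set of highest mean stood for each gene, which was a choice among several for 45 genes, while 35 genes had a single one.

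The study measured 56 expression arrays of 55 mice in 9 groups. Smoke mice had breathed 4% mainstream cigarette smoke through the nose for 2 hours a day on 5 days a week, over 2, 12 or 24 weeks. Mice of both cessation groups had 12 weeks of smoke and then 12 weeks of sham exposure, in an arm labelled FA and an arm labelled RA. The labels do not spell out these abbreviations, but the names of the sham air groups carry FA too. Sham groups had breathed air in the same way for 2, 12 or 24 weeks, and a further group was untreated at week 0. All groups were females of the same strain, for which the sources used here give neither an age nor any altered gene. Each group held 6 mice, except smoke at 12 weeks with 7 mice on 8 arrays, where the 2 arrays of a single mouse were averaged. Nothing in the labels ties mice of different groups to each other, and p-values measure the spread between mice. Smoke at 24 weeks and both cessation groups are set against the same air mice.

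Potassium channels let potassium leave or enter the cell and set its resting voltage. In a muscle fibre they end each action potential and hold the membrane ready for the next, and the loss of potassium during hard work is part of what fatigue is attributed to. Pore-forming subunits build the channel, silent subunits join a pore of another family and alter it, and auxiliary subunits bind to the pore from the side. The channels of nerve endings, vessel walls and immune cells come from other genes of the same families, so a piece of muscle holds RNA of several sets of channels.

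Each level is the log2 of a deposited array intensity to which 16 was added. A level carries the SD between mice and a difference its SE. The median intensity of an array lay between 62.5 and 77.5, and precision is limited by how many arrays there are. All 14 defining genes of skeletal muscle, such as Ckm, Acta1 and Myh4, lay above the filter on dim genes, and their mean level ran from 13.15 to 13.39 over the mice. The arrays fell apart by Glycam1, which encodes a mucin of milk glands and lymph node vessels. Its intensity lay between 6944 and 10546 in 12 arrays and at 307 or less in the other 44. Of the 12 arrays, 3 belonged to smoke at 24 weeks, 3 to cessation RA, 2 to smoke at 12 weeks, and 1 each to cessation FA, air at 2 and 24 weeks and the untreated group, while smoke at 2 weeks and air at 12 weeks held none. Of 12 lymphocyte markers 10 were measured, and their summed intensity reached 27966 in smoke at 24 weeks against 6687 in air at 24 weeks, where the lowest sums were 156 and 154. Values are from all 55 mice unless the arrays of high Glycam1 are said to be left out, which leaves 44 mice. In that smaller set, smoke at 24 weeks and cessation RA keep 3 mice each and the other groups 5 or 6.

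Of the 80 genes, 33 were expressed in muscle, meaning that their mean level over the 44 arrays of low Glycam1 lay above 5.68, the 40th percentile of all probe sets. The 20 probe sets of Y-linked genes, which these females lack, reached at most 5.42, and 39 of the 80 lay above that. Probe sets differ in how strongly they bind, so a level is not set against that of another gene. Of voltage-gated pores, 8 of 13 were expressed. Among them Kcna7 and Kcnc4, both known from skeletal muscle, averaged 10.00 and 11.18, and the probe set of Kcnc4 carries the suffix for sequence shared between transcripts. Kcnc1, a pore of fast-firing cells, averaged 9.45, and Kcna5, a delayed rectifier also known from vessel walls and heart, averaged 8.28. Kcna1 at 7.63 and Kcna2 at 6.88 are known from the axons of motor nerves. Of silent subunits, which form no channel alone, 3 of 9 were expressed, namely Kcng4 at 8.04, Kcnf1 at 6.48 and Kcns3 at 6.46.

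Among the 9 genes of the EAG and KCNQ families only Kcnq5 at 10.78, a slow voltage-gated pore known from skeletal muscle, and Kcnh3 at 5.80 passed. Inward rectifiers were expressed in 5 of 15 cases. Kcnj11 at 10.43 is the pore of the ATP-sensitive channel of muscle fibres, Kcnj8 at 9.96 is its counterpart in vessel smooth muscle and pericytes, and Kcnj12 at 8.63 and Kcnj2 at 6.23 hold the resting voltage. Of tandem-pore leak channels 4 of 12 were expressed, and of the calcium- or sodium-activated family 6 of 8. Families follow the letters of the gene symbol, so this one also holds Kcnu1, and its opening by these ions is not claimed. The calcium- or sodium-activated family includes Kcnma1 at 11.87, the large-conductance calcium-activated pore, and Kcnn1 at 8.20 and Kcnn2 at 7.95, pores of small-conductance calcium-activated channels. Of 14 auxiliary genes 5 were expressed, among them Kcne4 at 8.00, Kcnab1 at 7.93 and Kcne3 at 5.72, the last a partner of Kcnc4 in muscle. Kcnab1 encodes a beta subunit that binds the Kcna pores inside the cell.

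Below the filter lay Kcna3 and other genes known from cells that are not muscle fibres, although Kcna1, Kcna2, Kcnj8 and Kcnn4, known from nerve, vessel wall or blood cells, lay above it. Kcna3, the voltage-gated channel of T cells, averaged 4.77, Kcnj10 of glia 4.74, and Kcnmb1, the smooth muscle partner of Kcnma1, 4.86. Kcnn3, a small-conductance pore, averaged 4.91, Kcnip3, a calcium-binding partner of Kcnd pores, 4.65, and Kcnk13, read by a probe set of the cross-reacting kind, 5.23. Of the 33 expressed genes 32 also passed the filter over all 56 arrays, a level of 5.71, and were tested among 12351 genes. Kcnip4 did not pass it, and no other member was tested.

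**Figure D1:**
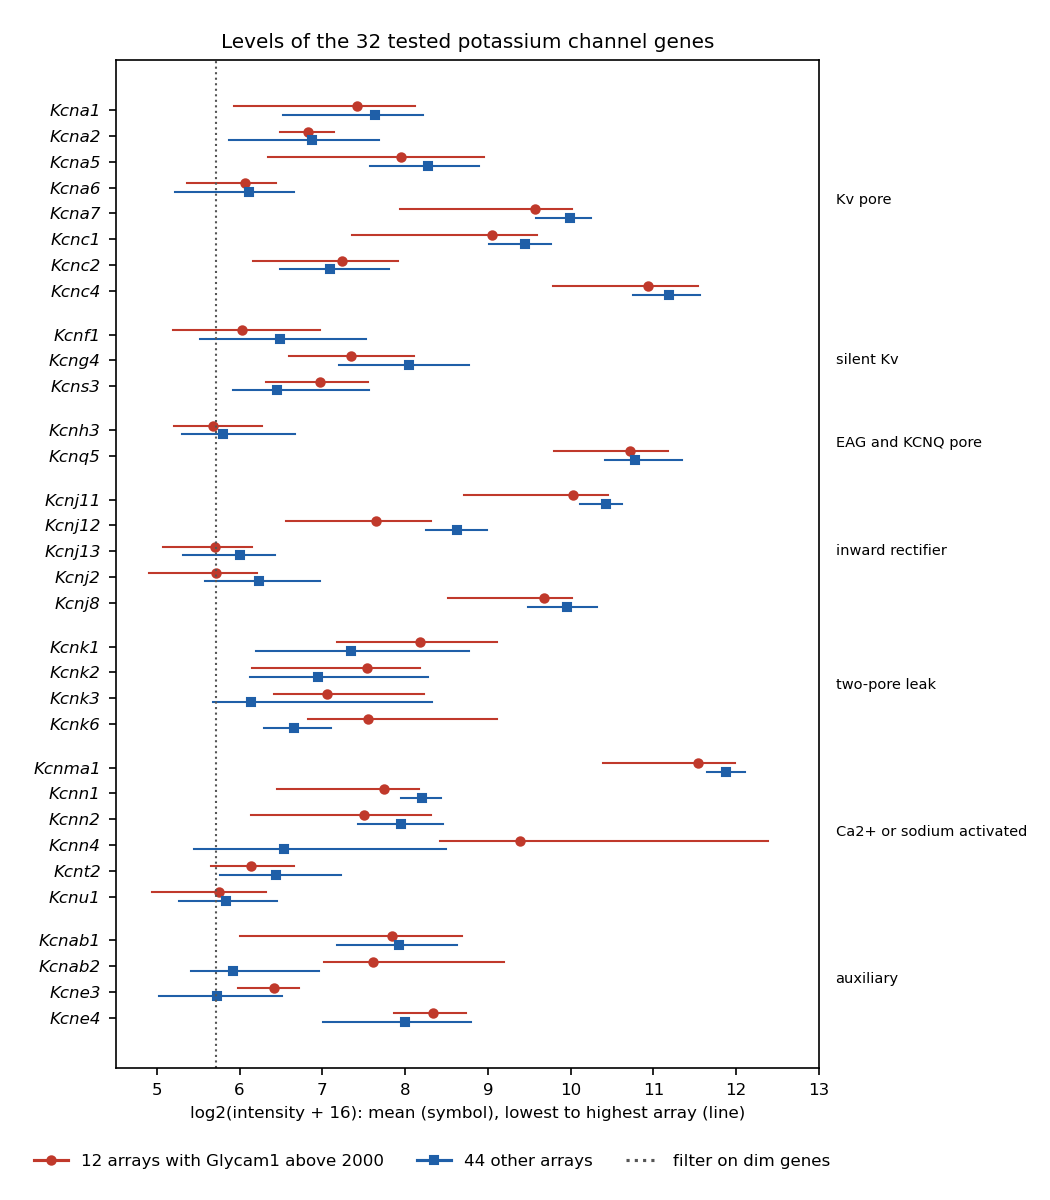
Levels of the 32 tested potassium channel genes, as log2 of intensity plus 16 on the horizontal axis, grouped by family. Symbols are means and lines run from the lowest to the highest array, for the 12 arrays of high Glycam1 and the other 44, and the dotted line marks the filter. The widest gap between both kinds of array is that of Kcnn4, at 9.39 and 6.54.

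Several members differed between the arrays of high and low Glycam1, which is a description of arrays chosen by that gene and was not tested. The 12 arrays of high Glycam1 also read higher for fat and macrophage genes, with Adipoq at 12.70 against 10.86, Lep at 9.63 against 7.06 and Csf1r at 11.32 against 9.89. Kcnn4, the calcium-activated channel of lymphocytes and red cells, averaged 9.39 (8.42 to 12.38) in the 12 arrays of high Glycam1 and 6.54 (5.45 to 8.49) in the other 44. Kcnab2, a beta subunit, averaged 7.61 against 5.92, and the leak channel gene Kcnk6 averaged 7.55 against 6.66. For Kcnj12 the order was the other way round, 7.65 (6.56 to 8.31) against 8.63 (8.25 to 8.99). Kcng4 averaged 7.35 in the 12 arrays against 8.04 in the others, and Kcnf1 averaged 6.03 against 6.48. The mouse measured on 2 arrays gave 1 of each kind. In its array of high Glycam1 Kcnn4 read 9.78 and Kcng4 7.08, against 6.22 and 8.77 in its array of low Glycam1, and Kcnf1 read 5.43 against 6.60. So all 3 genes differed between arrays of the same animal in the direction seen over all arrays. Its array of high Glycam1 is also the one outside the main identifier run, so Glycam1 and run cannot be told apart here.

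The silent subunits Kcnf1 and Kcng4 are followed first. The bases that lie just before their transcription starts are shown so that both can be read beside those of Kcnab1 and Kcnj8 further on. The 250 bases before the start listed by RefSeq on assembly GRCm38.p6 are given 5′ to 3′ on the strand of the gene. For Kcnf1 they lie at chr12:17176889-17177138, minus strand, and for Kcng4 at chr8:119635681-119635930, minus strand.
Kcnf1: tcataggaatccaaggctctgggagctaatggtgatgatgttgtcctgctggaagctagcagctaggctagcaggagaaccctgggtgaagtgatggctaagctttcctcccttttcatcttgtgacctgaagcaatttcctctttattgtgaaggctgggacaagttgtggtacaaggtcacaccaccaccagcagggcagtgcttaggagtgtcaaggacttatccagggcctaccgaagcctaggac
Kcng4: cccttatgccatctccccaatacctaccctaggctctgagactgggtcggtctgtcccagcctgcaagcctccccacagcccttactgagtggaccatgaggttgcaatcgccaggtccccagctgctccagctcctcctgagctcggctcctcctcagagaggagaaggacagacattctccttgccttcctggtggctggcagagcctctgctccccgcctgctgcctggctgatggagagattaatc
Neither stretch holds any of 4 motifs searched on both strands, and so no letter is in capitals. These were CACGTG, the E-box read by clock factors, GCGTG, the core read by the dioxin receptor, TATAAA, the TATA box, and GGGCGG, the GC box. In 27025 such stretches of all genes, 6.05% held CACGTG, 28.2% GCGTG, 13% TATAAA and 32.9% GGGCGG. A stretch was listed for 61 of the 80 members, of which 3 held CACGTG, 16 GCGTG, 2 TATAAA and 30 GGGCGG.

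After 2 weeks of smoke no potassium channel gene passed the test, a Benjamini-Hochberg adjusted p under 0.05 in limma over all 12351 genes. The share of all genes that passed was 0%, and 2 of the 32 members and 255 genes had an unadjusted p under 0.05. The 2 members were the silent subunits. Kcng4 lay at 8.20, 8.63 and 8.72 (lowest, median and highest) in smoke mice and at 7.46, 7.94 and 8.09 in air mice. All 6 smoke mice lay above all 6 air mice, which 0.381% of all genes showed in either direction. The means were 8.54 ± 0.21 and 7.83 ± 0.24 (SD, n = 6 each), a difference of 0.71 ± 0.20 with a limma adjusted p of 0.998. An exact two-sided permutation test of this gene alone gave p = 0.0022, the smallest that 6 against 6 mice allow. Kcng4 was picked with these values known, so that p is not independent evidence. With the arrays of high Glycam1 left out the difference was 0.63, and again no smoke mouse overlapped the 5 air mice, which 0.623% of all genes showed.

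Kcnf1 lay at 6.67, 6.93 and 7.53 in smoke mice and at 6.03, 6.51 and 6.78 in air mice at 2 weeks. The groups overlapped, with 5 of 6 smoke mice above all air mice. The means were 7.05 ± 0.32 and 6.45 ± 0.25 (SD, n = 6 each), and the difference of 0.59 ± 0.22 did not pass, with a limma adjusted p of 0.998. Kcns3, the remaining silent subunit, differed by -0.20. Of 10 markers of Schwann cells and nerve 8 were measured, and Nefl, Nefm and Mag lay below the filter. The 5 that were tested, Pmp22, Mbp, S100b, Sox10 and Cnp, were all lower in smoke at 2 weeks. Their median difference was -0.40 and none passed. The summed intensity of the 8 measured markers ran from 4055 to 9421 in smoke and from 5471 to 13588 in air. Their part in the values of the silent subunits was not tested. All 4 tandem-pore leak genes lay below 0, between -0.45 and -0.17, and none of them passed. With the arrays of high Glycam1 left out they lay between -0.28 and -0.001, with a median of -0.10 in place of -0.32. The next members by p were the pores Kcnc2 at -0.33 and Kcnt2 at -0.24 and the leak channel gene Kcnk3 at -0.44, which stood at -0.24, -0.30 and -0.10 without those arrays. Kcnf1 differed by 0.57 in that set.

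At 12 weeks again no member passed, against 0.0081% of all genes, which is 1 gene. An unadjusted p under 0.05 was reached by 1 member, Kcnu1, a channel gene known from sperm, with a difference of 0.39 ± 0.15, and by 230 genes, against 2 members and 930 genes in the smaller set, where 0.0081% of all genes and no member passed. Kcnf1 averaged 6.06 ± 0.37 in 7 smoke mice and 6.22 ± 0.58 in 6 air mice, a difference of -0.16, and of -0.025 with the arrays of high Glycam1 left out. Kcng4 averaged 8.12 ± 0.34 and 8.11 ± 0.36, a difference of 0.01, and 0.22 without the arrays of high Glycam1. Both groups overlapped for both genes. Kcna7 differed by -0.27, and by -0.13 without those arrays, Kcnj13, an inward rectifier known from epithelia, by -0.21, Kcne4 by 0.28 and Kcnh3 by -0.21, with limma adjusted p of 0.999 each. All 5 inward rectifiers lay below 0 with all mice and 3 of 5 with the arrays of high Glycam1 left out. All 4 leak genes lay above 0 at this time, between 0.08 and 0.32, and 2 of 4 in the smaller set.

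At 24 weeks Kcnf1 was the only member that passed, and it was lower in smoke. Of all 12351 genes 58, or 0.47%, passed in this comparison, and 0.413% passed as lower. Kcnf1 lay at 5.19, 5.64 and 6.60 in smoke mice and at 6.25, 6.60 and 6.97 in air mice. All but 1 of the 6 smoke mice lay below all air mice. The means were 5.72 ± 0.52 and 6.60 ± 0.30 (SD, n = 6 each), a difference of -0.88 ± 0.22, or 1.84-fold lower, with a limma adjusted p of 0.0455. Fold changes are on the scale of intensity plus 16, which understates the change of dim genes. The exact two-sided permutation test gave p = 0.011, with 0.0022 as the smallest possible. Kcnf1 too was picked with these values known, so neither p is independent evidence. The other probe set of Kcnf1, which lay below the filter at 5.08, differed by -0.19.

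The 3 smoke mice of high Glycam1 had the lowest Kcnf1 levels of the 6, namely 5.19, 5.30 and 5.45, against 5.84, 5.94 and 6.60 in the other 3. Without these arrays Kcnf1 averaged 6.13 ± 0.42 in 3 smoke mice and 6.52 ± 0.27 in 5 air mice. The difference was then -0.40 with a limma adjusted p of 0.374, and the exact permutation p was 0.18, with 0.036 as the smallest possible. No member passed in that set, where 0.364% of all genes did. The call for Kcnf1 also ended when only the compared groups were fitted, with a limma adjusted p of 0.641. That fit has fewer samples and takes its spread between mice from the compared groups alone, and the value is not particular to Kcnf1. Over the alternatives 0.641 was also the highest limma adjusted p of Kcna5, Kcnc4, Kcnu1 and Kcnn2. Leaving out mice 1 at a time gave -1.06 to -0.77, and the call held in 6 of 12 cases. Without the smoke mouse of replicate 6 the difference was -0.77 with a limma adjusted p of 0.192.

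Kcng4 differed by -0.06 ± 0.20 at 24 weeks, with 7.79 ± 0.67 in smoke and 7.85 ± 0.21 in air, and by 0.24 without the arrays of high Glycam1. The smoke mice spanned 6.59 to 8.53, and both ends of that span lay outside the air mice. Averaged over the 3 times, Kcng4 differed by 0.22 (limma adjusted p = 0.571), and by 0.36 (0.136) without those arrays, while Kcnf1 differed by -0.15 and 0.05. The members of lowest p were Kcna5 at -0.32, Kcna7 at -0.23, Kcnj8 at -0.16, Kcnc2 at -0.19 and Kcnn1 at -0.18. No member passed in this average with either set, where 0.0324% and 0.154% of all genes did. At an unadjusted p under 0.05 stood 3 and 5 members, and 1132 and 1636 genes.

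**Figure D2:**
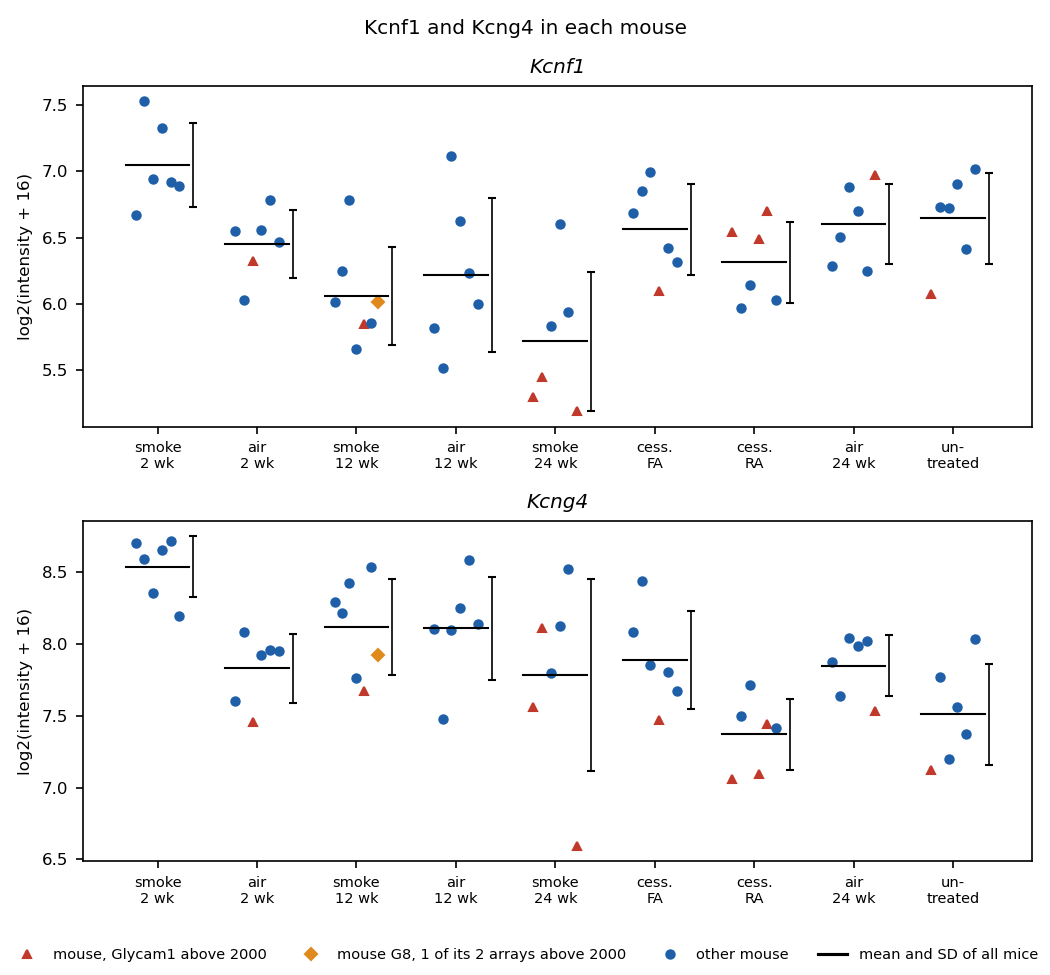
Level of Kcnf1 and Kcng4, log2 of intensity plus 16 on the vertical axis, in each mouse of the 9 groups, with a line at the mean, a whisker for the SD and triangles for mice of high Glycam1. The diamond is mouse G8, of whose 2 arrays 1 was high. Kcng4 in smoke at 2 weeks lies wholly above air at 2 weeks (8.20 to 8.72 against 7.46 to 8.09), and Kcnf1 in smoke at 24 weeks reaches down to 5.19.

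The change of the smoke difference between 2 and 24 weeks was tested directly. For Kcnf1 the difference at 24 weeks minus that at 2 weeks was -1.475 ± 0.31, with a limma adjusted p of 0.04996, and it was the only member among 4 genes that passed, 0.0324% of all, or 0.0243% as lower. Without the arrays of high Glycam1 it was -0.97 with an adjusted p of 0.154, and no member passed against 0.146% of all genes. With 1 mouse left out the limma adjusted p ran from 0.0142 to 0.174, and the other Kcnf1 probe set, below the filter, gave -0.19. For Kcng4 the value was -0.77 with a limma adjusted p of 0.202. Kcnj12, Kcna5 and Kcnc4 gave -0.93, -0.79 and -0.62, and none of them passed.

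Among the voltage-gated pores 7 of 8 lay below 0 at 24 weeks of smoke against air, and none passed. Kcna5 lay at 6.35, 8.16 and 8.47 in smoke mice and at 8.36, 8.76 and 8.95 in air mice, a difference of -0.78 ± 0.21 with a limma adjusted p of 0.0569. All but 1 of the smoke mice lay below the air mice, and 1 smoke mouse, of high Glycam1, lay far below the rest. Kcna5 differed by -0.39 without the arrays of high Glycam1. Kcnc4 differed by -0.50 ± 0.14 (limma adjusted p = 0.0649), and by -0.32 (0.0773) without those arrays. Kcna7 differed by -0.47 and -0.14 in the same order.

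The other families were split at 24 weeks. Inward rectifiers lay below 0 in 4 of 5 cases and genes of the calcium- or sodium-activated family in 4 of 6. Among the latter were Kcnn2 at -0.57 and Kcnu1 at -0.49, with limma adjusted p of 0.0781 and 0.0778. The family counts moved in the smaller set. There inward rectifiers lay above 0 in 3 of 5 cases and the calcium- or sodium-activated family in 3 of 6, an even split. The leak genes, 2 of 4 above 0 with all mice, stood at 0 of 4. Kcnn2 and Kcnu1 there differed by -0.17 and -0.21, while voltage-gated pores again lay below 0 in 7 of 8 cases. Over all 32 members the median difference was -0.16 and 11 lay above 0, beside -0.03 and 44.8% of all genes. With those of high Glycam1 left out the median was -0.04 and 13 lay above 0, and 5 members did not overlap between groups, beside 8.76% of all genes. In that set Kcnh3 differed by 0.73, and the stretch-sensitive leak channel gene Kcnk2 by -0.92, both with a limma adjusted p of 0.0646.

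Lymphocyte markers moved beside these values. All 7 that were tested lay above 0 at 24 weeks of smoke, with a median difference of 1.74, and of 0.23 without the arrays of high Glycam1, while Cd4, Ltb and Ccr7 lay below the filter. These 7 passed the filter only through the 12 arrays of high Glycam1, where they averaged 9.15 to 10.95. In the other 44 arrays they averaged 4.82 to 5.49, below the filter, so the 0.23 lies near background. Smoke held 3 such arrays and air 1, so the direction with all mice is no separate result. Slow fibre genes also stood lower, all 10 below 0 with a median of -0.50, and of -0.55 without those arrays, and none passed. Their summed intensity ran from 21400 to 62576 in smoke and from 40243 to 62549 in air. Endothelial markers lay below 0 in 8 of 8 cases with a median of -0.23, and of -0.30 without those arrays, and Tie1 passed as lower with all mice. Macrophage markers lay above 0 in 7 of 8 cases with a median of 0.25, and in 1 of 8 with -0.22 without those arrays. The part of these cells and fibres in the channel values was not tested, and in such bulk samples fewer cells of a type and less RNA per cell cannot be told apart.

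Other genes of muscle excitability, a list of 32 sodium, calcium and chloride channels, pumps and synapse genes, gave 25 that were tested. None passed in either direction at 2 or 24 weeks of smoke. At 24 weeks their median difference was -0.20 and 2 of 25 lay above 0, against 0.06 and 17 of 25 without the arrays of high Glycam1. Clcn1, the chloride channel of the fibre membrane, differed by -0.36 ± 0.20 and by 0.21 ± 0.09 in these sets. The receptors Abcc8 and Abcc9, which join Kcnj11 and Kcnj8 in the ATP-sensitive channel, differed by -0.08 and -0.05. At 2 weeks the median of the 25 was 0.04.

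**Figure D3:**
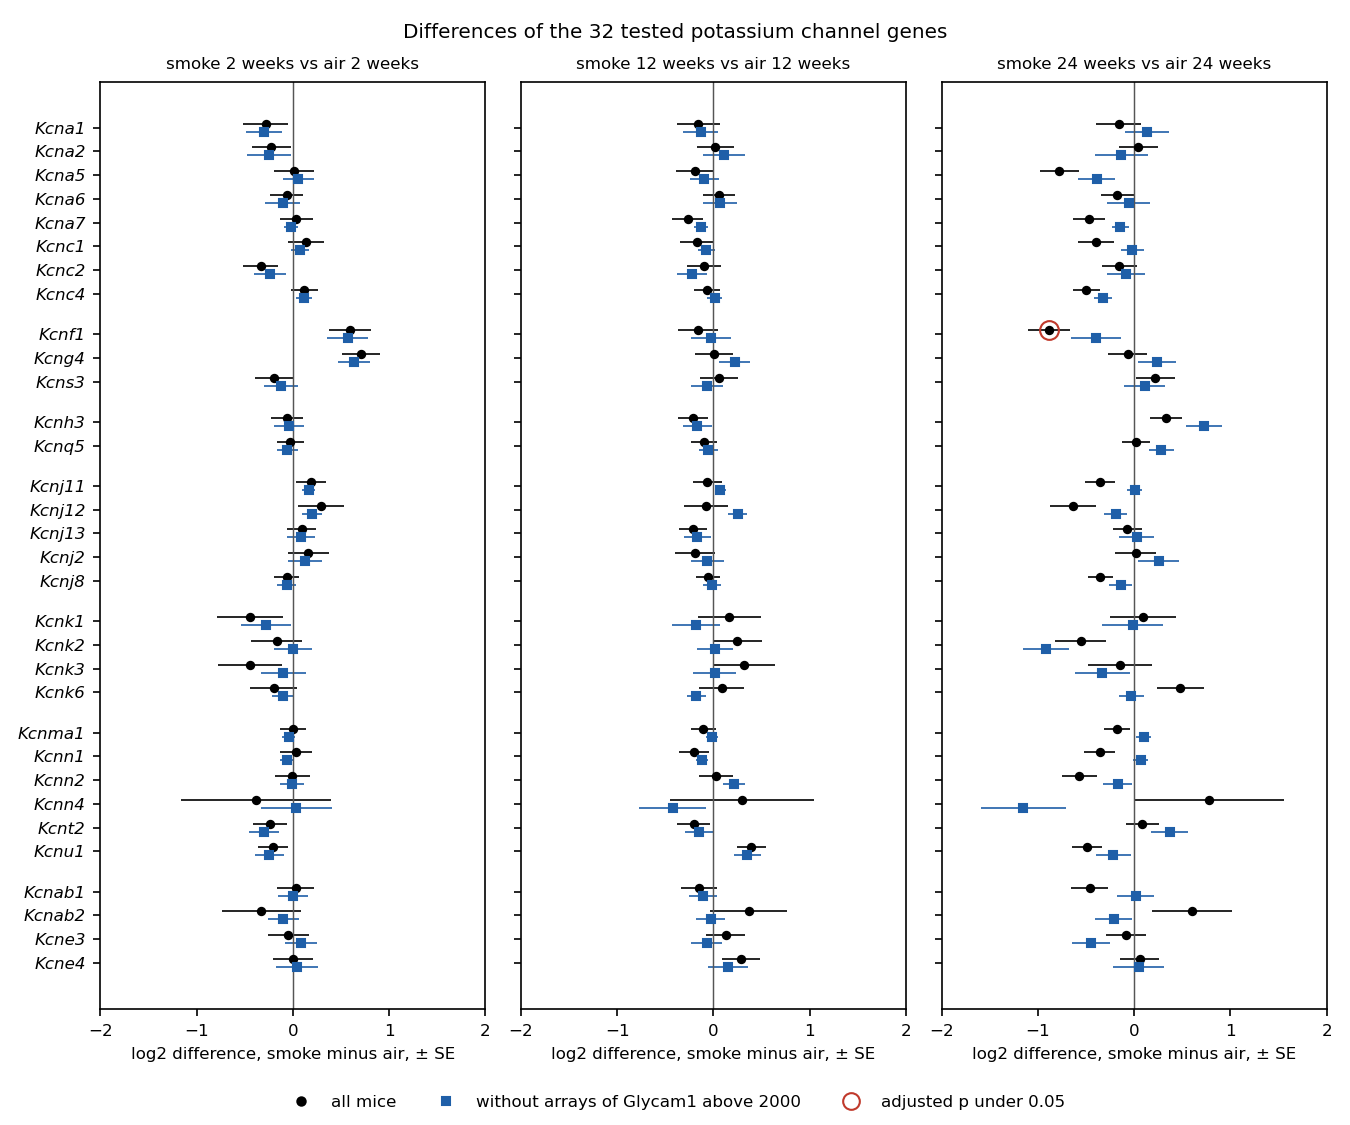
Difference of each of the 32 tested potassium channel genes between smoke and air at 2, 12 and 24 weeks, in log2 units with its SE as a line, with all mice and without the arrays of high Glycam1. A ring marks the only call, Kcnf1 at 24 weeks with all mice at -0.88, which lies at -0.40 without those arrays.

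The cessation groups ask how channel genes stand after smoke has ended. Cessation RA against air at 24 weeks gave 1 member past the test, Kcna5, where 1.76% of all genes passed and 1.15% as lower. Kcna5 lay at 7.62, 7.94 and 8.21 in cessation RA and at 8.36, 8.76 and 8.95 in air. No mouse of cessation RA reached the air mice, which 2.18% of all genes showed. The means were 7.90 ± 0.20 and 8.69 ± 0.25 (SD, n = 6 each), a difference of -0.79 ± 0.21, or 1.72-fold lower, with a limma adjusted p of 0.0311. The difference was -0.60 with an adjusted p of 0.065 once the arrays of high Glycam1 were left out. The call held in 4 of the 12 fits that left out 1 mouse, where the difference ran from -0.85 to -0.73. The 7 lymphocyte markers, which passed the filter only through the arrays of high Glycam1, lay above 0 in cessation RA with a median of 1.58. The median was -0.01 without those arrays, where their levels lie near background, and their part was not tested.

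Kcna5 stood high in air at 24 weeks. It averaged 8.22 ± 0.18 in air at 2 weeks, 8.29 ± 0.27 in air at 12 weeks and 8.42 ± 0.27 in untreated mice. Air at 24 weeks against air at 2 weeks differed by 0.47, with a limma adjusted p of 0.359. Cessation FA averaged 8.16 ± 0.37, and its difference to air of -0.53 did not pass, with a limma adjusted p of 0.530. No member passed in cessation FA against air, beside 0.081% of all genes, and 2 members and 865 genes had an unadjusted p under 0.05. Kcnf1 differed by -0.04 and Kcng4 by 0.04 in that comparison, Kcnj2 by 0.45, Kcne3 by -0.40, Kcnn2 by -0.33 and Kcnj8 by 0.20. In the smaller set no member passed, beside 0.235% of all genes, and 1 member did not overlap, beside 1.6%.

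In cessation RA against air without the arrays of high Glycam1, 4 members passed beside 3.97% of all genes (1.51% higher and 2.45% lower), with 3 mice of cessation RA and 5 air mice. Kcnab1 was higher by 0.71 (limma adjusted p = 0.026), and it differed by 0.67 (0.0571) with all mice. Kcnq5 was higher by 0.44 (limma adjusted p = 0.0478), and its other 2 probe sets differed by 0.41 and 0.13 in the same set, while with all mice the 3 probe sets differed by 0.34, 0.20 and -0.19. The leak channel genes Kcnk6 and Kcnk1 were lower by values of -0.46 and -1.06, with limma adjusted p of 0.0361 and 0.0491. Kcnk1 read 6.36, 6.82 and 6.86 in these 3 mice and at least 7.45 in the air mice, with no overlap, as for 12.2% of all genes, while the 3 mice of cessation RA with high Glycam1 read 7.87, 8.27 and 8.38. The other Kcnk1 probe set differed by -0.42 in this set and by 0.03 with all mice. With all mice neither leak gene passed. Schwann and nerve markers lay below 0 in 5 of 5 cases in the set without high Glycam1, with a median of -0.75. The summed intensity of the 8 measured Schwann and nerve markers ran from 5071 to 6960 in cessation RA and from 6042 to 10822 in air there. Adipocyte markers lay below 0 in 6 of 6 cases with a median of -1.21 and macrophage markers in 8 of 8 with -0.33, and none of these markers passed. Summed adipocyte intensity ran from 10928 to 12975 in cessation RA and from 11898 to 33480 in air, and the part of these cells was not tested.

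Kcng4 was low in cessation RA, at 7.06, 7.43 and 7.71, against 7.54, 7.93 and 8.04 in air at 24 weeks. The difference was -0.48 ± 0.20 and did not pass, with a limma adjusted p of 0.250, and was -0.37 without the arrays of high Glycam1. Kcnf1 differed by -0.29 there, and by -0.48 without those arrays. With all mice Kcnn2 differed by -0.51 and Kcnj13 by -0.41, and none of the 3 passed.

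Continued smoke at 24 weeks can be set against cessation, in groups of the same total time. Against cessation RA, 2 members passed beside 2.34% of all genes, and both were lower in smoke, where 1.4% of all genes passed. Against cessation FA, 3 members passed beside 3.55% of all genes, and all were lower in smoke, where 1.95% passed. Kcnab1 and Kcnj8 passed in both comparisons, and Kcnf1 passed against FA and not against RA. That contrast equals the comparison of cessation RA with cessation FA. There Kcnf1 differed by -0.25 and did not pass, with a limma adjusted p of 0.962. Both comparisons share the smoke mice. The 250 bases before the first listed starts of Kcnab1 and Kcnj8 are shown because these are the members that passed in both. They lie at chr3:64948962-64949211, plus strand, for Kcnab1, which has 3 listed starts, and at chr6:142571615-142571864, minus strand, for Kcnj8, on RefSeq assembly GRCm38.p6. Capitals mark the GC box GGGCGG of Kcnab1, on either strand, and the GCGTG core of Kcnj8, which lies on the opposite strand.
Kcnab1: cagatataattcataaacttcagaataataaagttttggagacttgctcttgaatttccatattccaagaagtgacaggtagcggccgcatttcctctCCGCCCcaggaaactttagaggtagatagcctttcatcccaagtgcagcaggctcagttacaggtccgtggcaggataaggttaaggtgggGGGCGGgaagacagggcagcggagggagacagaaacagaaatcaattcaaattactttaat
Kcnj8: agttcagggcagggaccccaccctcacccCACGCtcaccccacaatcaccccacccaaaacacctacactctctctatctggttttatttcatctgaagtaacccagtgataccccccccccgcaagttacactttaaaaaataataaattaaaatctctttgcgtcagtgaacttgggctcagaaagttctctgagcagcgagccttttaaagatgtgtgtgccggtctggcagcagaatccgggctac
Kcnab1 holds 2 GC boxes and Kcnj8 none, and Kcnj8 holds 1 GCGTG core and Kcnab1 none. A match is a description and not a site, and no match says only that these letters are not in the stretch.

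Kcnab1, the beta subunit, lay at 6.00, 7.55 and 8.05 in smoke at 24 weeks, at 7.65, 8.08 and 8.34 in cessation FA and at 8.21, 8.50 and 8.69 in cessation RA. All 6 smoke mice lay below all mice of cessation RA, which 0.664% of all genes showed in either direction. The means of smoke and cessation RA were 7.35 ± 0.72 and 8.48 ± 0.21 (SD, n = 6 each), a difference of -1.13 ± 0.19, or 2.19-fold lower, with a limma adjusted p of 0.000275. Air at 24 weeks lay between, at 7.81 ± 0.39. The call for Kcnab1 held in all 12 fits that left out 1 mouse, where the difference ran from -1.27 to -0.86. Without the arrays of high Glycam1 it was -0.70, with a limma adjusted p of 0.058, and the 3 smoke mice lay below the 3 of cessation RA, as for 26.2% of all genes in either direction. The other probe set of Kcnab1, below the filter, differed by -0.58. Against cessation FA Kcnab1 differed by -0.72 ± 0.19 (limma adjusted p = 0.0294), and by -0.31 (0.375) without those arrays.

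Kcnj8, the pore of the ATP-sensitive channel of vessel walls, lay at 8.52, 9.59 and 9.92 in smoke, at 9.65, 10.05 and 10.18 in cessation FA and at 9.77, 10.01 and 10.29 in cessation RA. Of the smoke mice 5 of 6 lay below all mice of cessation RA and 4 of 6 below all of cessation FA. The difference to cessation RA was -0.56 ± 0.13, or 1.48-fold lower, with a limma adjusted p of 0.00977, and to cessation FA -0.55 ± 0.13, with 0.0153. The lowest smoke level, 8.52, came from an array of high Glycam1, and all arrays of low Glycam1 read at least 9.48. With 1 mouse left out the difference to cessation RA ran from -0.65 to -0.38, and the call held in all 12 fits. That to cessation FA ran from -0.65 to -0.37, and the call held in 11 of 12. Without the arrays of high Glycam1 the difference to cessation RA was -0.48 and still passed, with a limma adjusted p of 0.0394, and that to cessation FA was -0.31, with 0.155. Kcnj11, the pore in the fibre itself, differed by -0.38 against cessation RA and by -0.07 without those arrays, and did not pass in either set. The calls of Kcnab1 and Kcnj8 ended in both comparisons when only the compared groups were fitted, with limma adjusted p from 0.341 to 0.721.

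Endothelial markers stood beside Kcnj8. All 8 lay below 0 in smoke against cessation RA, with a median of -0.36, and Cdh5, Kdr and Tek passed, as they also did without the arrays of high Glycam1. The 8 markers of smooth muscle and pericytes had a median of -0.04 and none passed. The summed endothelial intensity ran from 2855 to 5999 in smoke and from 5078 to 5583 in cessation RA. Slow fibre genes lay below 0 in 10 of 10 cases against both cessation groups, with medians of -0.45 for RA and -0.54 for FA. Lymphocyte markers, which passed the filter only through the arrays of high Glycam1, had medians of 0.38 and 1.97 in the same order. The part of these cells in the values of Kcnab1, Kcnj8 and Kcnf1 was not tested.

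Kcnf1 was lower in smoke than in cessation FA by a value of -0.84 ± 0.22, with a limma adjusted p of 0.0248, and it averaged 5.72 ± 0.52 and 6.56 ± 0.34 (SD, n = 6 each). It differed by -0.53 (limma adjusted p = 0.259) without the arrays of high Glycam1. Against cessation RA it differed by -0.59 with all mice and by 0.08 without those arrays, and did not pass. With those arrays left out, no member passed against cessation FA, beside 1.89% of all genes, with 7 members and 2327 genes at an unadjusted p under 0.05. There 2 members did not overlap, beside 10.5% of all genes. Against cessation RA, Kcnj8 and Kcna7 passed in that set, beside 3.28% of all genes and 1.48% as lower, and Kcna7 differed by -0.35 with a limma adjusted p of 0.0457. Without the smoke mouse of replicate 6, no member passed against cessation FA, and Kcnab1, Kcnj8 and Kcng4 passed against cessation RA. Kcng4 then differed by 0.65 with a limma adjusted p of 0.0381. With all mice it differed by 0.42 against cessation RA and by -0.10 against cessation FA, and by 0.61 and 0.18 without the arrays of high Glycam1. Kcna7 differed by -0.55 and Kcnk6 by 0.76 against cessation FA, with limma adjusted p of 0.0521 and 0.0597, and by -0.20 and 0.19 with the arrays of high Glycam1 left out. Kcna7 differed by -0.53 and Kcnc4 by -0.38 against cessation RA, with limma adjusted p of 0.0795 and 0.158.

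**Figure D4:**
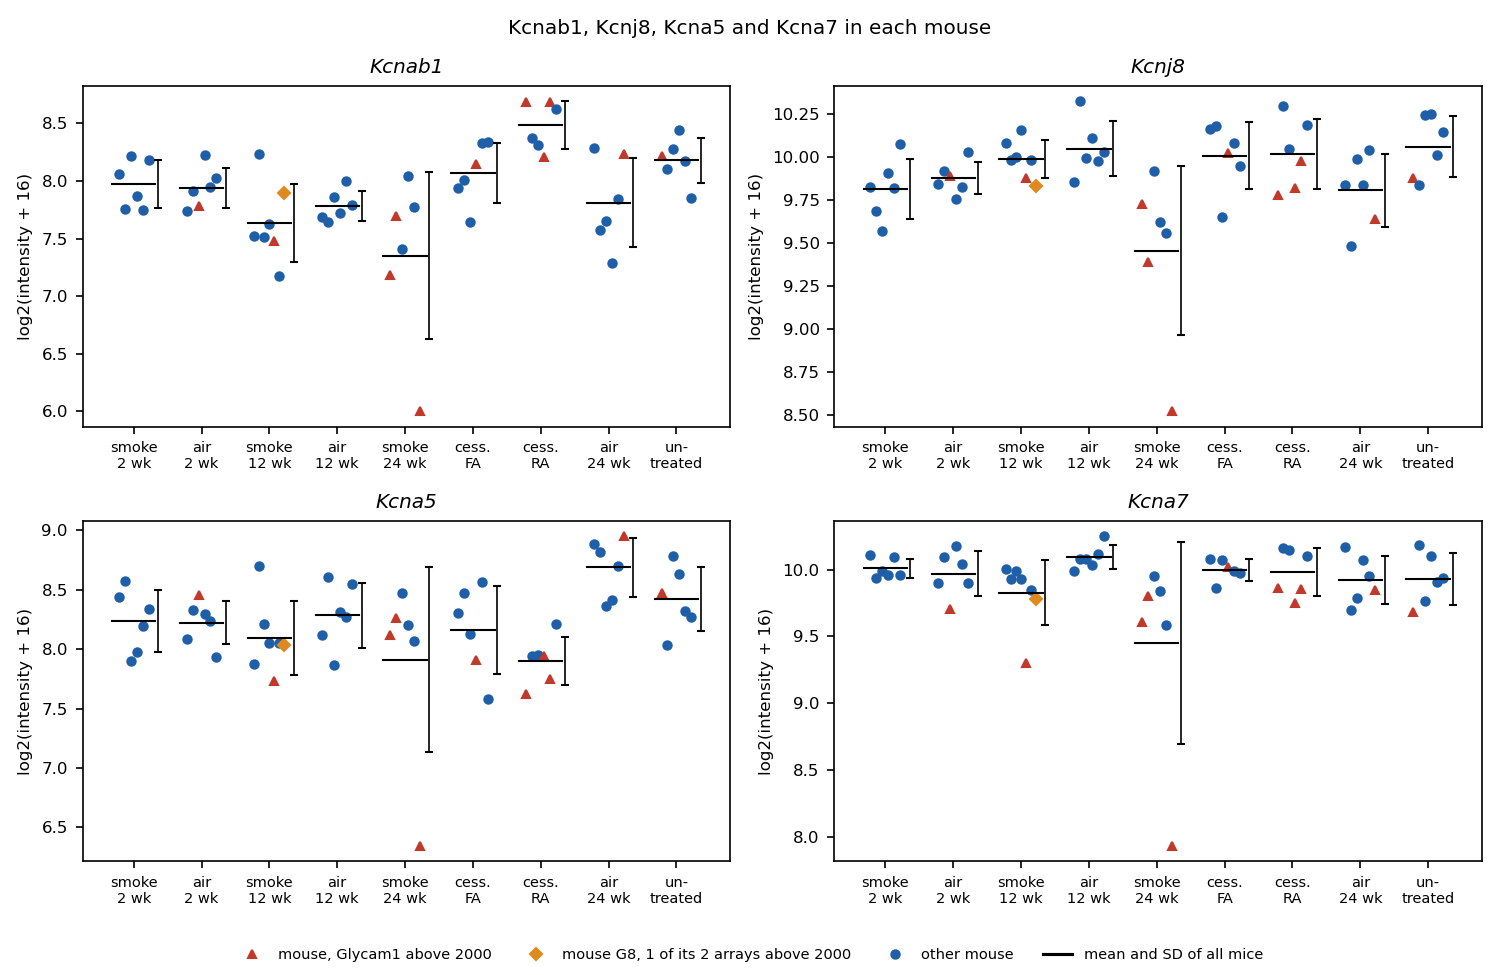
Level of Kcnab1, Kcnj8, Kcna5 and Kcna7, log2 of intensity plus 16 on the vertical axis, in each mouse of the 9 groups, with a line at the mean, a whisker for the SD and mice of high Glycam1 marked apart. Kcnab1 in smoke at 24 weeks ends at 8.05, below the 8.21 at which cessation RA begins.

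Cessation RA against cessation FA gave 0 members past the test beside 0.0243% of all genes, with 3 members and 512 genes at an unadjusted p under 0.05. Kcng4 averaged 7.37 ± 0.25 in cessation RA and 7.89 ± 0.34 in cessation FA, a difference of -0.52 with a 95% interval from -0.92 to -0.11 and a limma adjusted p of 0.962. In the smaller set no member passed, beside 0.0324% of all genes, and 2 did not overlap, beside 5.19%. With all mice Kcnab1 differed by 0.41 and Kcnf1 by -0.25, while Kcnj13 differed by -0.42, Kcnt2 by -0.32 and Kcnk2 by 0.46.

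Air at 24 weeks against air at 2 weeks gave 0 members with all mice, beside 0.219% of all genes, with 2 members and 1462 genes at an unadjusted p under 0.05. Kcne3 differed by 0.63 with a limma adjusted p of 0.240, Kcne4 by 0.31, Kcnt2 by -0.28 and Kcnh3 by -0.25. Kcnf1 and Kcng4 differed by 0.15 and 0.02. Without the arrays of high Glycam1, Kcne3 passed, higher by 0.66 with a limma adjusted p of 0.0318, where 2.71% of all genes passed and 1.81% as higher. It lay at 5.70 to 6.51 in 5 mice at 24 weeks and at 5.02 to 5.65 in 5 mice at 2 weeks, with no overlap, as for 4.49% of all genes. In that set macrophage markers lay above 0 in 8 of 8 cases with a median of 0.73, and Cd163 passed. Endothelial markers did so in 8 of 8 with 0.32, and Tek and Cldn5 passed, while slow fibre genes stood at 9 of 10 with 0.41 and adipocyte markers at 6 of 6 with 0.44. Summed macrophage intensity ran from 5736 to 8848 at 24 weeks and from 3736 to 6364 at 2 weeks, and the part of these cells was not tested. Air at 2 weeks against untreated mice gave 0 members beside 0.518% of all genes, with 1 member, the sodium-activated pore Kcnt2 at 0.49, and 911 genes at an unadjusted p under 0.05. Kcng4 differed by 0.32 there, Kcnn2 by 0.30, Kcna1 by -0.36, Kcnf1 by -0.19 and Kcnj8 by -0.18. Without the arrays of high Glycam1 it also gave 0 members, beside 1.91% of all genes, and 1 member did not overlap, beside 5.04%.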

How the data were processed

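RNA of gastrocnemius muscle was amplified, labelled with biotin and hybridised to 56 arrays of 55 mice, per the labels' protocols. The authors deposited 1 table of intensity values on a linear scale for 45037 probe sets, from -20 to 15890, while the sources used here do not say how probes were summarised into them. Of these probe sets 34945 had 1 gene symbol in the platform annotation, 932 had several and 9160 none, and unnamed or shared probe sets were left out.

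Values below -15 were set to -15 (5 values), 16 was added and log2 taken, and the 2 arrays of 1 mouse were averaged. The probe set of highest mean stood for each of 18193 genes, and 12351 genes above the 40th percentile were tested. limma 3.58.1 in R 4.3.3 (lmFit, contrasts.fit, eBayes) fitted all 9 groups at once with 46 residual degrees of freedom, and Benjamini-Hochberg adjustment ran over all tested genes in each of 12 comparisons. Exact permutation tests used scipy 1.17.1. The fit was also run on simulated data with 12351 genes, into which the changes had been placed. At 2 weeks it found 90 of 100 genes changed by 1 and 62 of 100 changed by 0.5, with 11 false calls. How many changes of these sizes would pass on the measured arrays was not tested. On those arrays Kcng4 differed by 0.71 at 2 weeks and did not pass.

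The named genes were Kcnf1, Kcng4, the members past the test, the 5 of lowest p in each comparison, the 15 of highest level and a set of channels known from muscle, nerve, vessel wall or immune cells. Members and marker lists were chosen with earlier results of these data known. Alternatives covered the filter, pseudocount, scaling, choice of probe set, arrays of high Glycam1, arrays by identifier, a covariate, the groups fitted and each mouse left out.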

Additional observations from a re-analysis of the deposited data

Results flagged for a closer look

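A sample was looked at where it stood far from the rest of its group by Dixon's ratio, in 90 combinations of gene and group, of which chance alone gives about 1 in 20. It picked 4 levels, all on arrays of high Glycam1. Kcna5 read 6.35 in smoke at 24 weeks, replicate 6, where the nearest other mouse read 8.07. In the same mouse Kcna7 read 7.93, with the nearest at 9.59. Kcna7 read 9.30 in smoke at 12 weeks, replicate 5, with the nearest at 9.78. Kcnk6 read 7.46 in untreated replicate 1, with the nearest at 6.67.

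The change in the smoke difference of Kcnf1 between 2 and 24 weeks only just passed in limma, for a gene picked with its values known. The change was -1.475 with an adjusted p of 0.04996, and -0.97 with an adjusted p of 0.154 without the arrays of high Glycam1. It passed in 2 of 13 alternatives, and the other probe set, below the filter, gave -0.19.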

How the results depend on the processing

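Over 77 gene differences and 13 alternatives, 989 of 998 values kept their direction, as did 1141 of 1166 with 1 mouse left out. Part of this was fixed in advance, and the counts do not measure robustness. A change of filter, a robust fit or a fit of the compared groups alone cannot move a difference of group means. Neither can the choice of array for the mouse with 2, outside comparisons with smoke at 12 weeks. The differences also include those of lowest p in each comparison. Kcnf1 in smoke against air at 24 weeks did not pass under 10 alternatives, and the member count was then 0. Its difference was -0.88 with no filter, a filter at the 20th percentile, 1 array alone for the mouse with 2, or only the compared groups fitted. It was -0.51 with a pseudocount of 64, -0.85 with quantile normalization, -0.53 with the mean of probe sets, -0.40 without arrays of high Glycam1, -0.92 without arrays outside the main identifier run and -0.96 with the title number as covariate. The adjusted p ran from 0.0363 to 0.641 over the 13. Under 11 alternatives the change between 2 and 24 weeks gave 0 members. Without arrays of high Glycam1 the members called were 4 in cessation RA against air (2 with a pseudocount of 64), 0 in smoke against cessation FA and 1 in air at 24 against 2 weeks. Smoke against cessation FA gave 7 members without arrays outside the main run, which are all of smoke mice. Fitting only the compared groups, with fewer samples, gave 0 in that comparison and against cessation RA. Directions turned without arrays of high Glycam1 for Kcng4 in smoke at 24 weeks against air (0.24) and cessation FA (0.18), and for Kcnf1 in the smoke average (0.048), cessation FA against air (0.13, and 0.032 with the mean of probe sets) and smoke against cessation RA (0.078). Kcng4 turned to -0.0065 at 12 weeks with quantile normalization and -0.11 with 1 array alone for the mouse with 2, and to -0.0021 in air at 24 against 2 weeks with quantile normalization. The cause of these changes was not tested. Leaving out 1 mouse gave 0 to 6 members in smoke against air at 24 weeks, 0 to 1 in cessation RA against air, 0 to 8 and 2 to 4 in smoke against cessation FA and RA, and 0 to 1 for the change between 2 and 24 weeks. Kcnf1 then ran from -1.06 to -0.77 at 24 weeks, -0.30 to 0.022 at 12 weeks and -0.12 to 0.055 in cessation FA against air. Kcng4 ran from -0.12 to 0.10 at 12 weeks, -0.21 to 0.17 at 24 weeks, -0.073 to 0.12 in cessation FA against air, -0.25 to 0.14 in smoke against cessation FA and -0.055 to 0.083 in air at 24 against 2 weeks. Kcnk6 ran from -0.21 to 0.036 in cessation RA against air. Over all genes, calls in smoke against air at 24 weeks ran from 4 to 547 with 1 mouse left out, beside 58. No paired analysis was possible because the labels number no mice across groups. Probe sets near the filter carry little signal over background, which limits Kcnf1 and the other dim members.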
